A study of Homo sapiens with 12 samples.

Results

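The genes examined were 10 members of the transforming growth factor β (TGF-β) pathway, chosen by name. They were the ligands TGFB1, TGFB2 and INHBA, the activator THBS1 and the receptors TGFBR1 and TGFBR2. The others were the signal transducer SMAD3, the inhibitory SMAD7, the corepressor SKIL and the response gene TGFBI. The 10 genes were the rows of a table of 38021 gene names that carried these symbols, and all 10 were among the 16838 genes with enough counts to test. The table held RNA-seq counts of 786O cells, a human clear cell renal cell carcinoma line that lacks functional VHL, and of WT8 cells, which are 786O cells that express wildtype VHL. Each line had been infected with pLKO.1 lentivirus that encoded either a scrambled shRNA (shControl) or one that targets BMAL1 (shBMAL1). The 4 groups, each of 3 biological replicates, were 786O shControl, 786O shBMAL1, WT8 shControl and WT8 shBMAL1. All 4 groups were selected and then kept in puromycin and were grown in the same serum-containing medium. No label names an added TGF-β ligand. The labels name one shBMAL1 reagent, so a second shRNA does not check the results. How VHL was introduced into WT8, and whether WT8 is a single clone, is not given in the sources used here.

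TGF-β ligands are secreted in a latent form that the extracellular matrix stores, and proteins such as thrombospondin 1 (THBS1), integrins and proteases release the active dimer. The active ligand joins type II (TGFBR2) and type I (TGFBR1) receptor kinases, which phosphorylate SMAD2 and SMAD3. These enter the nucleus with SMAD4 and switch on response genes, among them SMAD7 and SKIL, which feed back on the pathway. Activins, such as the dimer of INHBA, use other receptors but the same SMADs. In the kidney, TGF-β is best known for its part in fibrosis and epithelial-mesenchymal transition. BMAL1 is a circadian transcription factor that binds DNA with CLOCK, and VHL directs HIF2α to degradation.

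The labels were checked on their target genes. BMAL1, listed as ARNTL, was at 10.8 to 13.5 CPM (counts relative to the scaled library size) with shControl and at 3.68 to 4.08 CPM with shBMAL1 in 786O, against 8.40 to 10.3 and 1.49 to 1.92 CPM in WT8. VHL was at 17.6 to 21.3 CPM in the 6 libraries of 786O, at 916 to 1020 CPM in WT8 shControl and at 631 to 661 CPM in WT8 shBMAL1. VHL transcript was therefore lower with shBMAL1 in WT8 (log2 change -0.60, SE 0.05, adjusted p = 6.68e-13, edgeR), and its part in the WT8 results below was not tested. Libraries held 33182005 to 36477484 counts. All 8 renal epithelial markers had a mean over 1 CPM in every group (summed 3549 to 6586 CPM over the 12 libraries). VIM was the largest part of this sum in each group (group means 1821 to 4480 CPM), and PAX8 had group means of 313 to 1334 CPM. The 4 endothelial markers summed to 1.47 CPM at most, 5 fibroblast markers to 4.70 to 10.8 CPM and 5 immune markers to 17.7 to 43.2 CPM. The immune sum was mostly that of CD68 (group means 19.1 to 41.9 CPM), and the T cell marker CD3E was at 0 in all libraries. The summed level of 10 proliferation genes was 2435 to 2542 CPM in 786O shControl, 2548 to 2677 CPM in 786O shBMAL1, 537 to 567 CPM in WT8 shControl and 2332 to 2338 CPM in WT8 shBMAL1. All 10 were lower in WT8 than in 786O with shControl and higher with shBMAL1 in WT8. Proliferation thus moved with both comparisons that use WT8 shControl, and its part in the changes described below was not tested. As whole cultures were sequenced, fewer cells with a transcript and less of it per cell cannot be told apart.

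The promoters of the 10 genes were read for motifs of BMAL1, HIF and SMAD factors. All 10 matched the RefSeq promoter table (GRCh38.p14), of which the 250 bases before each start were searched on both strands for the E-box CACGTG, to which BMAL1 and CLOCK bind, for ACGTG and GCGTG, the cores of HIF sites, and for the SMAD motifs GTCTAGAC and CAGAC. An E-box holds ACGTG on both strands, so the first searches overlap. The E-box occurred in 2 of the 10 promoters, those of TGFB2 and SMAD3, against 6.49% of 27305 promoters of this length. Both are shown because they carry the BMAL1 motif and because the genes moved in opposite directions with shBMAL1 in WT8 (below). Capitals mark the E-box and any other ACGTG or GCGTG, on either strand (CACGT and CACGC are these cores on the opposite strand).
TGFB2, chr1:218345086-218345335, plus strand: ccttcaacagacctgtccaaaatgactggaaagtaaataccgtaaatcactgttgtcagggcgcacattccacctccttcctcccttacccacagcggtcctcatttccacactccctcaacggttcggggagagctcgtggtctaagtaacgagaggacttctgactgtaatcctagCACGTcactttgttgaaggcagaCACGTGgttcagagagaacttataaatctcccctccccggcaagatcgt
SMAD3, chr15:67065352-67065601, plus strand: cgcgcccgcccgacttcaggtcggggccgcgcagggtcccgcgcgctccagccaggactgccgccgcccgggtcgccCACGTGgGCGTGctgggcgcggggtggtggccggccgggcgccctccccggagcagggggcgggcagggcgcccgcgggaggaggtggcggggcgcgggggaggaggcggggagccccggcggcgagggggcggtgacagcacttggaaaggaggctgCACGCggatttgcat
The TGFB2 E-box began 49 bases before the start, with a further ACGTG core at 72 bases. The SMAD3 E-box began 173 bases before the start, and GCGTG cores lay at 166 and 15 bases. ACGTG occurred in 4 of the 10 promoters (TGFB2, TGFBR2, SMAD3 and SKIL) and in 18.7% of all, GCGTG in 4 (TGFB1, TGFBR1, SMAD3 and THBS1) and in 31.9% of all, and CAGAC in 5 (TGFB2, TGFBR1, SMAD7, SKIL and THBS1) and in 37.8% of all. GTCTAGAC occurred in 0 of the 10 and in 0.176% of all. The promoters of TGFBI and INHBA held none of these letters. The bases checked after the TGFBR2 start were in none of its annotated transcripts, whereas every other member had a match. The start used for TGFBR2, and so its ACGTG, is therefore less certain. A match describes the sequence only, since binding was not measured in these data.

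In 786O, shBMAL1 raised TGFB1, INHBA, SKIL and TGFBI and lowered TGFB2, THBS1, TGFBR1 and TGFBR2 (edgeR quasi-likelihood test, adjusted p under 0.1). That is 4 members higher, against 24.5% of all genes tested, and 4 lower, against 24.4%, or 8 of 10 in either direction, against 48.9%. In WT8, TGFB2, INHBA and THBS1 rose and TGFBR1, TGFBR2, SMAD3, SKIL and TGFBI fell, which is 3 higher (32.9% of all genes) and 5 lower (36.9%), together 8 of 10 against 69.8%. Between the lines with shControl, 9 of 10 members differed, against 79.5% of all genes: TGFBR2 and SKIL were higher in WT8 (39.3% of all genes) and TGFB1, TGFB2, INHBA, THBS1, TGFBR1, SMAD7 and TGFBI were lower (40.2%). A large share of all genes was called in each comparison, so the count of members called says little and the size of each change says more. Changes tested as larger than 1.5-fold were found for 1 member in 786O (TGFBR1, against 5.88% of all genes), for 3 in WT8 (TGFBR2, SMAD3 and THBS1, against 25.6%) and for 7 between the lines (TGFB1, TGFB2, INHBA, THBS1, TGFBR1, SKIL and TGFBI, against 41.5%). The median log2 change of the members was 0.06 in 786O, -0.13 in WT8 and -0.82 between the lines, where all genes had 0.00, -0.04 and 0.00.

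**Figure D1:**
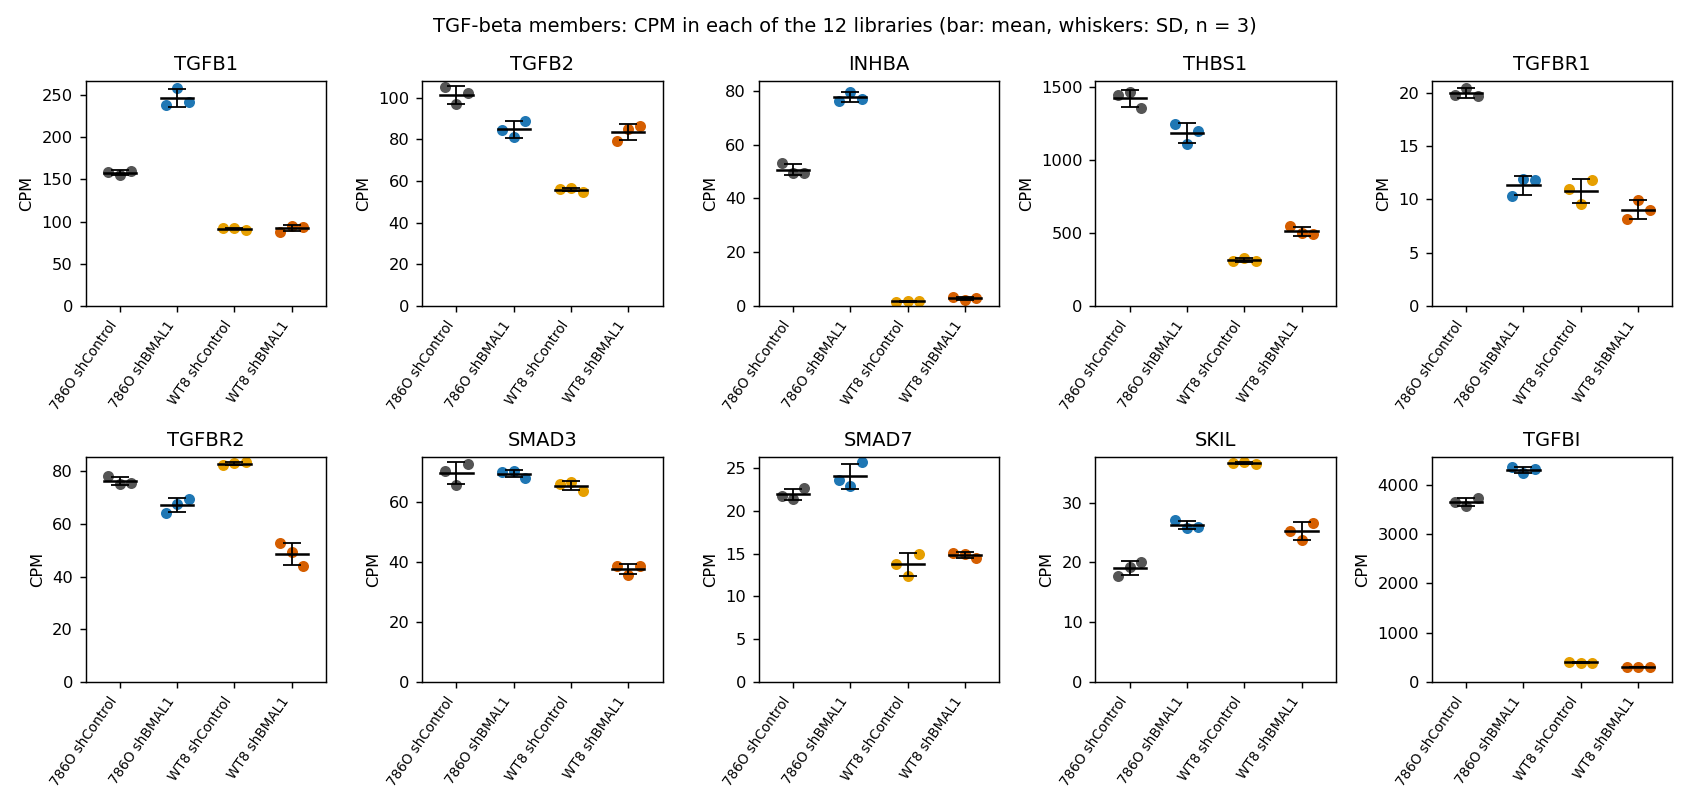
Level of each of the 10 genes in CPM (vertical axes, linear and starting at 0) in the 4 groups. Each point is 1 library, the bar is the mean and the whiskers are the SD (n = 3). In fold, the drop from 786O to WT8 is widest for INHBA and TGFBI, and SMAD3 stands apart only in WT8 shBMAL1.

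TGFB1, the most widely expressed TGF-β ligand (GRCh37 chromosome 19, 41807492 to 41859827, minus strand), rose with shBMAL1 in 786O and did not pass the test in WT8. It was at 159, 155 and 160 CPM in the libraries of 786O shControl and at 238, 258 and 242 CPM in 786O shBMAL1. In WT8 the shControl libraries had 92.3, 92.0 and 90.4 CPM and the shBMAL1 libraries 87.8, 94.6 and 93.2 CPM. The order was thus 786O shBMAL1, 786O shControl and then both WT8 groups, which overlapped each other. The log2 change was 0.64 in 786O (SE 0.04, adjusted p = 3.24e-14, edgeR), a 1.55-fold rise, and 0.00 in WT8 (SE 0.05, adjusted p = 0.939). With shControl the gene was 1.73-fold lower in WT8 than in 786O (log2 -0.79, SE 0.05, adjusted p = 1.29e-17). The exons of TGFB1 share 215 bases with those of HNRNPUL1 on the opposite strand, which had 8927 to 15571 counts per library, and whether strand was used in counting is not stated.

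TGFB2, another ligand of the same receptors (chromosome 1, 218518678 to 218617961, plus strand), changed the opposite way in each line: it fell with shBMAL1 in 786O and rose in WT8. The libraries had 105, 96.7 and 102 CPM in 786O shControl and 84.5, 81.0 and 89.0 CPM in 786O shBMAL1. They had 56.0, 56.7 and 54.9 CPM in WT8 shControl and 79.1, 85.0 and 86.3 CPM in WT8 shBMAL1. With shBMAL1 both lines reached the same range, while the shControl groups lay farthest apart. The log2 change was -0.25 in 786O (SE 0.05, adjusted p = 9.51e-05, edgeR) and 0.58 in WT8 (SE 0.05, adjusted p = 4.35e-12), and with shControl WT8 lay 1.81-fold below 786O (log2 -0.86, SE 0.05, adjusted p = 5.00e-17). The TGFB2 exons share 1371 bases with TGFB2-OT1 on the same strand (638 to 1265 counts per library) and 701 bases with TGFB2-AS1 on the opposite strand (76 to 187 counts). TGFB2 is therefore uncertain to the extent that reads were divided among them. It had 1955 to 3601 counts per library, far above TGFB2-AS1, but TGFB2-OT1 was not negligible beside it.

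INHBA, which encodes the subunit of activin A (chromosome 7, 41706766 to 41745432, minus strand), had the largest difference of the 10 genes between the lines and rose with shBMAL1 in both. In 786O its libraries had 53.3, 49.6 and 49.4 CPM with shControl and 76.2, 79.8 and 77.1 CPM with shBMAL1. In WT8 it was near the bottom of the measured range, at 58, 66 and 67 counts (1.58, 1.91 and 1.82 CPM) with shControl and 127, 77 and 111 counts (3.37, 2.06 and 2.97 CPM) with shBMAL1. No groups overlapped, although the lowest WT8 shBMAL1 library lay close to the highest of WT8 shControl. INHBA was 28.7-fold lower in WT8 shControl than in 786O shControl (log2 -4.84, SE 0.11, adjusted p = 3.14e-30, edgeR). The log2 change with shBMAL1 was 0.61 in 786O (SE 0.07, adjusted p = 1.11e-08) and 0.66 in WT8 (SE 0.15, adjusted p = 0.000162), and the wider error in WT8 goes with its few counts.

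THBS1, the matrix glycoprotein thrombospondin 1 that releases TGF-β from its latent form (chromosome 15, 39873280 to 39891667, plus strand), followed TGFB2: lower with shBMAL1 in 786O, higher in WT8, and lower in WT8 than in 786O with shControl. It was at 1446, 1471 and 1358 CPM in 786O shControl and 1247, 1109 and 1198 CPM in 786O shBMAL1. In WT8 it was at 309, 327 and 307 CPM with shControl and 548, 501 and 491 CPM with shBMAL1. None of the 4 groups overlapped, and each WT8 library lay below each 786O library. The log2 change with shBMAL1 was -0.27 in 786O (SE 0.05, adjusted p = 1.46e-05, edgeR) and 0.71 in WT8 (SE 0.05, adjusted p = 2.11e-15), and the lines differed 4.53-fold with shControl (log2 -2.18, SE 0.05, adjusted p = 5.65e-30). Its exons overlap FSIP1 on the opposite strand, which had only 12 to 39 counts per library.

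TGFBR1, the type I receptor kinase (chromosome 9, 101866320 to 101916474, plus strand), was highest in 786O shControl and lower in the other 3 groups. Its libraries had 19.8, 20.5 and 19.7 CPM in 786O shControl and 10.3, 11.9 and 11.8 CPM in 786O shBMAL1. They had 11.0, 9.54 and 11.8 CPM in WT8 shControl and 8.18, 9.94 and 8.97 CPM in WT8 shBMAL1. Only 786O shControl stood clear of every other group, since 786O shBMAL1 overlapped WT8 shControl and both WT8 groups overlapped each other. The decrease with shBMAL1 in 786O was the largest of the 10 genes in that line, at a log2 change of -0.82 (SE 0.10, adjusted p = 7.46e-09, edgeR). With shControl the gene was 1.85-fold lower in WT8 (log2 -0.89, SE 0.10, adjusted p = 2.01e-10). In WT8 the log2 change with shBMAL1 was -0.26 (SE 0.10, adjusted p = 0.0253), and it no longer passed without WT8 shControl replicate 3 (-0.19, adjusted p = 0.145) or without WT8 shBMAL1 replicate 1 (-0.18, adjusted p = 0.144).

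TGFBR2, the type II receptor kinase that binds the ligand first (chromosome 3, 30648093 to 30735634, plus strand), fell with shBMAL1 in both lines and more so in WT8. It was at 78.1, 75.3 and 75.5 CPM in 786O shControl and at 64.2, 67.6 and 69.6 CPM in 786O shBMAL1. In WT8 it was at 82.4, 83.1 and 83.6 CPM with shControl and at 52.6, 49.2 and 44.1 CPM with shBMAL1. All 4 groups were apart, in the order WT8 shControl, 786O shControl, 786O shBMAL1 and WT8 shBMAL1. The log2 change was -0.18 in 786O (SE 0.06, adjusted p = 0.00651, edgeR) and -0.77 in WT8 (SE 0.06, adjusted p = 1.41e-14), a 1.71-fold decrease. The difference between the lines with shControl was small (log2 0.12, SE 0.05, adjusted p = 0.0430) and no longer passed without 786O shControl replicate 2 (0.11, adjusted p = 0.125) or 3 (0.11, adjusted p = 0.107).

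SMAD3, the transducer that carries the signal to DNA (chromosome 15, 67356101 to 67487511, plus strand), fell with shBMAL1 in WT8 and was called neither with shBMAL1 in 786O nor between the lines. The libraries had 70.4, 65.7 and 72.9 CPM in 786O shControl and 70.1, 70.3 and 68.1 CPM in 786O shBMAL1. They had 66.1, 66.6 and 63.8 CPM in WT8 shControl and 38.6, 35.8 and 38.5 CPM in WT8 shBMAL1. The latter group stood well below the rest, while 786O shControl overlapped both 786O shBMAL1 and WT8 shControl. The log2 change was -0.80 in WT8 (SE 0.06, adjusted p = 3.84e-15, edgeR), a 1.74-fold decrease, and -0.00 in 786O (SE 0.05, adjusted p = 0.973). Between the lines it was -0.09 (SE 0.05, adjusted p = 0.134), which passed only without 786O shControl replicate 2 (-0.13, adjusted p = 0.0412).

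SMAD7, the inhibitory SMAD that blocks the type I receptor and is itself induced by TGF-β (chromosome 18, 46446223 to 46477335, minus strand), differed between the lines and was not called with shBMAL1 in either. It was at 21.8, 21.4 and 22.7 CPM in 786O shControl and 23.6, 22.9 and 25.7 CPM in 786O shBMAL1. It was at 13.8, 12.4 and 15.0 CPM in WT8 shControl and 15.1, 15.0 and 14.5 CPM in WT8 shBMAL1. The WT8 groups overlapped, and the 786O groups were only just apart. With shControl SMAD7 was 1.60-fold lower in WT8 (log2 -0.68, SE 0.08, adjusted p = 4.19e-09, edgeR). The log2 change with shBMAL1 was 0.13 in 786O (SE 0.08, adjusted p = 0.190) and 0.11 in WT8 (SE 0.08, adjusted p = 0.244), and the latter passed only without WT8 shControl replicate 3 (0.18, adjusted p = 0.0893).

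SKIL, which encodes the corepressor SnoN that holds SMAD complexes inactive (chromosome 3, 170075130 to 170114623, plus strand), rose with shBMAL1 in 786O and fell in WT8. It was at 17.8, 19.3 and 20.1 CPM in 786O shControl and 27.1, 25.8 and 25.9 CPM in 786O shBMAL1. In WT8 it was at 36.7, 36.8 and 36.6 CPM with shControl and 25.3, 23.8 and 26.7 CPM with shBMAL1. Both shBMAL1 groups overlapped at a level between the shControl groups, the mirror image of TGFB2. The log2 change was 0.46 in 786O (SE 0.07, adjusted p = 2.47e-06, edgeR) and -0.54 in WT8 (SE 0.07, adjusted p = 2.06e-08). With shControl it was 1.92-fold higher in WT8 (log2 0.94, SE 0.07, adjusted p = 2.54e-14), whereas SMAD7, also a feedback gene, was lower there.

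TGFBI, a secreted matrix protein named for its induction by TGF-β (chromosome 5, 135364677 to 135399507, plus strand), had the highest CPM of the 10 genes in 786O and fell steeply in WT8. Its libraries had 3657, 3573 and 3746 CPM in 786O shControl and 4368, 4251 and 4337 CPM in 786O shBMAL1. They had 398, 382 and 387 CPM in WT8 shControl and 293, 296 and 299 CPM in WT8 shBMAL1. No groups overlapped. With shControl TGFBI was 9.40-fold lower in WT8 (log2 -3.23, SE 0.04, adjusted p = 5.79e-37, edgeR). The changes with shBMAL1 were smaller and opposite, at a log2 change of 0.24 in 786O (SE 0.04, adjusted p = 3.59e-06) and -0.39 in WT8 (SE 0.04, adjusted p = 6.30e-11).

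**Figure D2:**
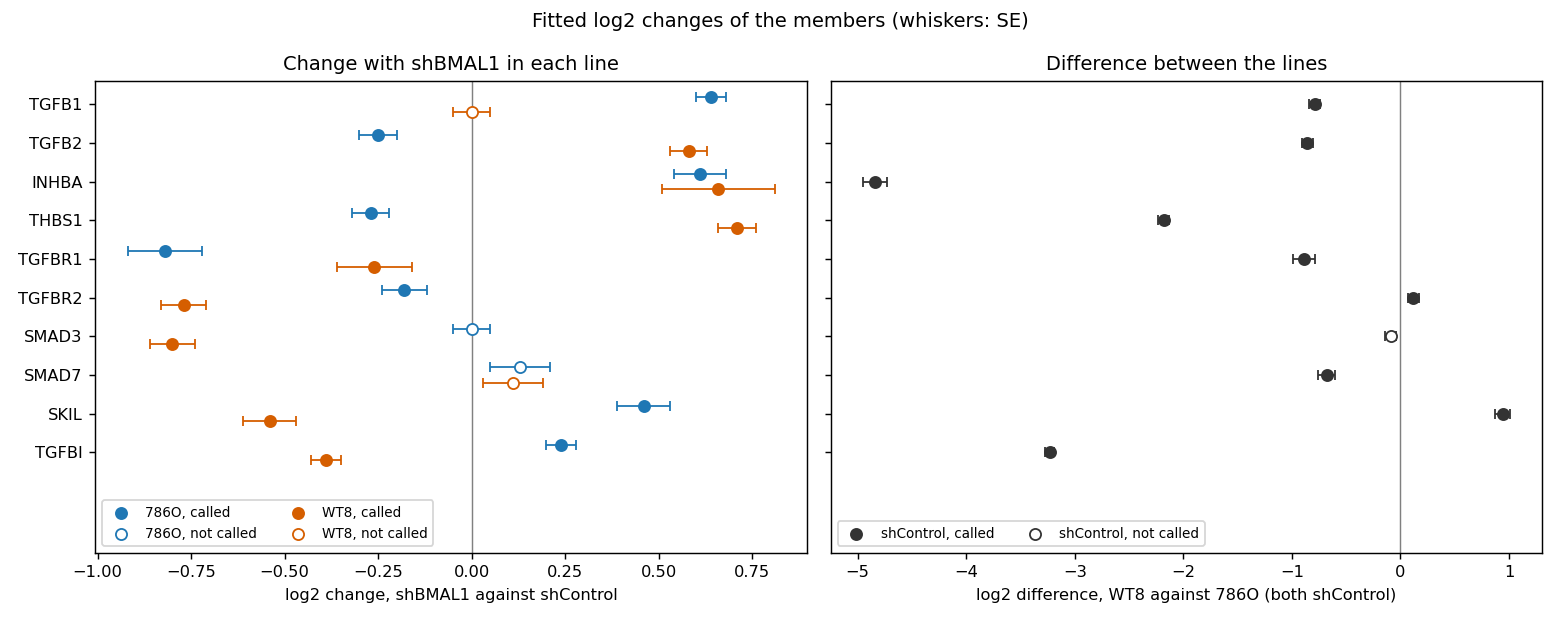
Fitted log2 change of each gene with shBMAL1 in 786O and WT8 (left) and between WT8 and 786O with shControl (right, on a wider axis). Filled points were called at an adjusted p under 0.1, open points were not, and whiskers are the SE. TGFB2 and THBS1 lie left of 0 in 786O and right of 0 in WT8, while SKIL and TGFBI do the reverse.

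Whether the response to shBMAL1 differed between the lines was tested directly, as the log2 change in WT8 minus that in 786O. It differed for 8 of the 10 genes, against 56.0% of all genes tested: TGFB2, THBS1 and TGFBR1 had the more positive change in WT8 (3 genes, against 27.4% of all genes) and TGFB1, TGFBR2, SMAD3, SKIL and TGFBI the more negative one (5 genes, against 28.5%). The difference was largest for SKIL (-1.0, SE 0.10, adjusted p = 1.48e-10, edgeR) and THBS1 (0.97, SE 0.07, adjusted p = 7.31e-15), followed by TGFB2 (0.84, SE 0.07, adjusted p = 4.39e-12) and SMAD3 (-0.80, SE 0.08, adjusted p = 5.42e-11). These 4 were also the genes whose difference was tested as larger than 1.5-fold, against 18.6% of all genes. SKIL, TGFBI, TGFB2 and THBS1 changed significantly in each line and in opposite directions. The receptors both fell in both lines, with TGFBR1 falling more in 786O (difference 0.56, SE 0.14, adjusted p = 0.000892) and TGFBR2 more in WT8 (-0.59, SE 0.08, adjusted p = 7.89e-08). For INHBA the difference was 0.05 (SE 0.16, adjusted p = 0.833) and for SMAD7 -0.02 (SE 0.12, adjusted p = 0.918). BMAL1 itself fell further in WT8 than in 786O (difference -0.86, SE 0.19, adjusted p = 0.000369), and whether the depth of the knockdown played a part in these differences was not tested.

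**Figure D3:**
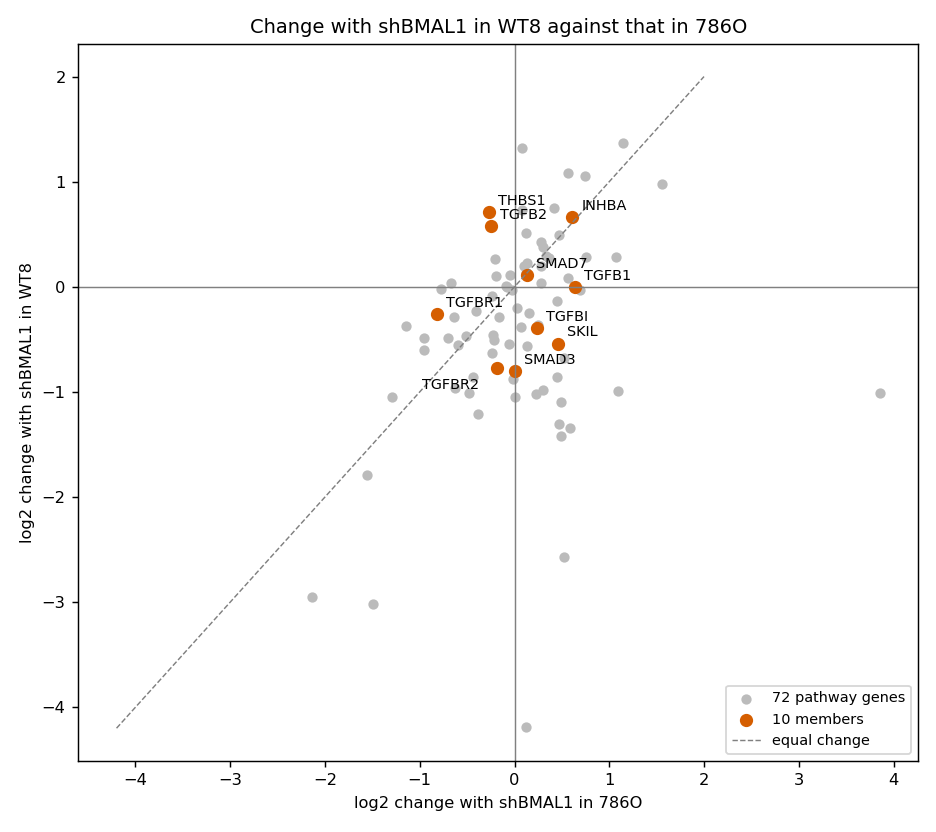
Log2 change with shBMAL1 in 786O (horizontal) and in WT8 (vertical) for the 10 genes (orange, named) and 72 other genes of the pathway lists (grey). The dashed line marks equal change, and only INHBA and SMAD7 lie near it among the 10 genes. Left out are ACVRL1 and BMP4, which had at most 3 counts in every library of both groups compared in one of the lines.

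Levels were compared between genes per kilobase of exon, using the joined exons of GENCODE version 44. These join the exons of all annotated transcripts of a gene (3264 bases for TGFB1, 7717 for TGFBI and 9158 for THBS1). A single transcript can be shorter, and which transcripts the cells made was not measured. The order of the genes depends on the length used and is uncertain to that extent. TGFBI was the highest of the 10 genes in 786O shControl (474 CPM per kilobase), ahead of THBS1 (156) and TGFB1 (48.5). The other genes there ran from 16.7 CPM per kilobase for TGFB2 down to 2.35 for SKIL. In WT8 shControl TGFBI (50.4), THBS1 (34.3) and TGFB1 (28.1) kept their ranks at lower levels, and TGFBR2 (12.1) stood above TGFB2 (9.23). INHBA, at 6.13 CPM per kilobase in 786O shControl, was the lowest of the 10 genes in WT8 shControl, at 0.214. In WT8 shBMAL1 THBS1 (56.1 CPM per kilobase) stood above TGFBI (38.4). TGFB1 was above TGFB2 in each group, by the widest margin in 786O shBMAL1 (75.4 against 14.0 CPM per kilobase). The type I receptor was below the type II receptor in each group, at 2.50 against 11.1 CPM per kilobase in 786O shControl and 1.13 against 7.10 in WT8 shBMAL1.

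The 10 genes were set beside 7 lists of other pathway genes, 91 in all, of which 74 could be tested. In 786O, shBMAL1 raised 31 of the 74, against 24.5% of all genes tested, and lowered 23, against 24.4% (median log2 change 0.08). In WT8 it raised 17, against 32.9% of all genes, and lowered 41, against 36.9% (median -0.33, or -0.29 without BMP4, which had at most 3 counts in every WT8 library). Between the lines 20 were higher and 40 lower in WT8, against 39.3% and 40.2% of all genes (median -0.20). The response to shBMAL1 differed between the lines for 49 of the 74, against 56.0% of all genes. Beyond 1.5-fold lay 10 of the 74 in 786O, 27 in WT8 and 38 between the lines, against 5.88%, 25.6% and 41.5% of all genes. No list was tested as a set, and a gene named for a single comparison may also have been called in another. The WT8 libraries that gave 41 lower genes also differed in VHL and in proliferation genes, as described above.

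Response genes of SMAD2 and SMAD3 were lower in WT8 with shBMAL1 in 12 of 17 cases and higher in 3, where 36.9% of all genes were lower and 32.9% higher (median log2 change -0.51). In 786O 7 rose and 5 fell, where 24.5% of all genes rose and 24.4% fell (median 0.10). The largest decrease in WT8 was that of IGFBP3, an insulin-like growth factor carrier, which went from 105 ± 4.51 CPM down to 17.7 ± 2.05 CPM (SD, n = 3), a log2 change of -2.57 (SE 0.06, adjusted p = 1.87e-29, edgeR). The largest increase there was that of CTGF, a matricellular protein, at only 0.23 (SE 0.06, adjusted p = 0.000630). In 786O SNAI1, a transcription factor of epithelial-mesenchymal transition, rose from 9.88 ± 1.18 to 15.9 ± 0.900 CPM (log2 0.69, adjusted p = 2.08e-06), and the collagen gene COL1A1 fell from 8.56 ± 1.04 to 3.86 ± 0.318 CPM (log2 -1.15, adjusted p = 9.37e-08). Between the lines with shControl 4 response genes were higher and 11 lower in WT8, beside 39.3% and 40.2% of all genes. Among those higher, TAGLN, which encodes an actin-binding protein, was up 4.76-fold (log2 2.25, SE 0.11, adjusted p = 3.74e-20).

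Genes of activins, inhibins and their antagonists fell with shBMAL1 in WT8 in 7 of 7 cases tested, where 36.9% of all genes fell, although INHA was down to 1 or 2 counts per library there. In 786O 4 rose and 2 fell, beside 24.5% and 24.4% of all genes. INHBA, which belongs to this family but not to the list, rose in both lines. Among those with a mean of at least 50 counts, INHBE, another activin subunit, fell the most in WT8 with shBMAL1, to 9.78 ± 0.872 CPM against a control level of 33.7 ± 2.02 CPM (log2 -1.79, SE 0.11, adjusted p = 4.29e-16, edgeR). In 786O INHBB, the subunit of activin B, rose (log2 0.59, SE 0.07, adjusted p = 1.07e-08), whereas it fell in WT8 (-1.34, SE 0.09, adjusted p = 2.50e-15). The ligand GDF11 fell in 786O (-0.64, SE 0.12, adjusted p = 2.02e-05) and in WT8 (-0.29, SE 0.10, adjusted p = 0.00978). Between the lines INHBE ran against INHBA: it was 37.0-fold higher in WT8 shControl than in 786O shControl, at 1156 to 1282 against 29 to 33 counts per library (log2 5.21, SE 0.15, adjusted p = 1.22e-25). FSTL3, which binds activin, was 4.84-fold lower in WT8 (log2 -2.27, SE 0.06, adjusted p = 1.12e-27).

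Of 13 genes of latency and activation, 4 were higher and 7 lower with shBMAL1 in 786O, beside 24.5% and 24.4% of all genes. In WT8 2 were higher and 9 lower (32.9% and 36.9% of all genes), and between the lines 4 were higher and 9 lower (39.3% and 40.2%). The gelatinase MMP9 fell in 786O (8.27 ± 0.282 to 2.94 ± 0.540 CPM, log2 -1.49, adjusted p = 6.83e-07, edgeR). It also fell in WT8, from 35 to 76 counts per library down to 2 to 15 counts (-3.02, SE 0.36, adjusted p = 2.07e-08). In 786O the latent TGF-β binding protein LTBP1 rose from a low level (1.56 ± 0.285 to 3.32 ± 1.00 CPM, log2 1.09, adjusted p = 0.00205). In WT8 LTBP3, of the same family, fell, at 228 ± 5.07 CPM with shControl and 85.3 ± 6.78 CPM with shBMAL1 (log2 -1.42, SE 0.06, adjusted p = 9.50e-20) and the gelatinase MMP2 rose (7.58 ± 1.22 to 16.0 ± 0.630 CPM, log2 1.08, adjusted p = 1.69e-14). MMP2 was 21.7-fold lower in WT8 than in 786O with shControl (log2 -4.44, SE 0.07, adjusted p = 2.37e-34), a difference of the order of that of INHBA, while LTBP4 was 2.57-fold higher (log2 1.36, SE 0.05, adjusted p = 5.92e-23).

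Among 11 other genes of receptors, co-receptors and an anchor protein, 3 rose and 5 fell in 786O, beside 24.5% and 24.4% of all genes. In WT8 1 rose and 6 fell, beside 32.9% and 36.9%. The co-receptor endoglin (ENG) fell in 786O from 74 to 104 counts per library to 14 to 28 counts (log2 -2.14, SE 0.32, adjusted p = 1.10e-06, edgeR). It also fell in WT8, from 40 to 53 down to 2 to 10 counts (-2.95, SE 0.41, adjusted p = 8.42e-08), and the difference between these changes was not called (adjusted p = 0.228). In 786O the BMP receptor BMPR1B rose (0.75, SE 0.18, adjusted p = 0.000970). In WT8 the type I receptor ACVRL1 fell from 63 to 110 counts to 14 to 20 counts (log2 -2.40, SE 0.36, adjusted p = 5.52e-07), and BMPR1A rose by a log2 change of 0.26 (SE 0.09, adjusted p = 0.0120). Between the lines 5 were higher and 3 lower in WT8 (39.3% and 40.2% of all genes), with the co-receptor TGFBR3 4.07-fold higher (log2 2.02, SE 0.15, adjusted p = 8.65e-15) and ENG lower (-0.95, SE 0.29, adjusted p = 0.00381).

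Of the 6 other SMAD genes, only SMAD1, which serves BMP receptors, was called in 786O (log2 0.30, SE 0.13, adjusted p = 0.0721, edgeR), where 48.9% of all genes were called. In WT8 3 rose and 1 fell, beside 32.9% and 36.9% of all genes. SMAD9 rose from 54 to 110 counts per library to 169 to 203 counts (log2 1.32, SE 0.21, adjusted p = 2.10e-06), and SMAD5 fell (-0.20, SE 0.08, adjusted p = 0.0239). Between the lines 1 was higher and 4 were lower in WT8 (39.3% and 40.2% of all genes), from 0.24 for SMAD5 (SE 0.08, adjusted p = 0.00531) to -0.54 for the shared partner SMAD4 (SE 0.06, adjusted p = 1.42e-09).

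SKIL and SMAD7 share their role with 13 genes listed as corepressors and pathway inhibitors, although some of the 13 can also promote signalling. Of these 13, 7 were higher and 3 lower with shBMAL1 in 786O, beside 24.5% and 24.4% of all genes. In WT8 5 were higher, 3 lower and 5 not called, beside 32.9% higher and 36.9% lower of all genes. SKI, the close relative of SKIL, rose in 786O (29.7 ± 1.19 to 41.2 ± 1.12 CPM, log2 0.47, SE 0.06, adjusted p = 8.06e-08, edgeR) and in WT8 (0.49, SE 0.06, adjusted p = 7.61e-09), where SKIL fell. In 786O the ubiquitin ligase NEDD4L fell (-0.67, SE 0.05, adjusted p = 5.72e-13). In WT8 the ubiquitin ligase SMURF2 rose (log2 0.75, SE 0.07, adjusted p = 2.47e-12) and the pseudoreceptor BAMBI fell (-1.31, SE 0.11, adjusted p = 4.13e-13). Between the lines 2 were higher and 7 lower in WT8 (39.3% and 40.2% of all genes), among them PMEPA1, a TGF-β-induced inhibitor, which was 2.54-fold lower (log2 -1.34, SE 0.06, adjusted p = 1.32e-18), and STRAP, which was 1.47-fold higher (0.55, SE 0.05, adjusted p = 1.24e-10).

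The BMP branch, which shares SMAD4 but has its own ligands and targets, rose in 5 of 7 genes tested and fell in 1 in 786O, beside 24.5% and 24.4% of all genes. In WT8 3 rose and 3 fell, beside 32.9% and 36.9%. The ligand BMP2 rose in 786O from 6.50 ± 0.466 to 19.2 ± 0.262 CPM (log2 1.56, SE 0.11, adjusted p = 5.36e-14, edgeR) and also rose in WT8 (0.98, SE 0.17, adjusted p = 6.21e-06). The BMP antagonist noggin (NOG) fell in 786O (-1.29, SE 0.16, adjusted p = 2.89e-08) and in WT8 (-1.05, SE 0.15, adjusted p = 2.53e-07). ID3, a BMP target, rose in WT8 (log2 1.05, SE 0.08, adjusted p = 3.39e-14) and in 786O (0.74, SE 0.07, adjusted p = 8.85e-11). Its relatives ID1 and ID2 also rose in 786O (0.45 and 0.52) but fell in WT8 (-0.14, adjusted p = 0.0408, and -0.68, adjusted p = 2.05e-10). ID4 rose in both lines, at 26 counts per library or fewer. Between the lines 0 genes were higher and 4 lower in WT8 (39.3% and 40.2% of all genes), with BMP2 5.52-fold lower (log2 -2.46, SE 0.15, adjusted p = 7.56e-17).

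**Figure D4:**
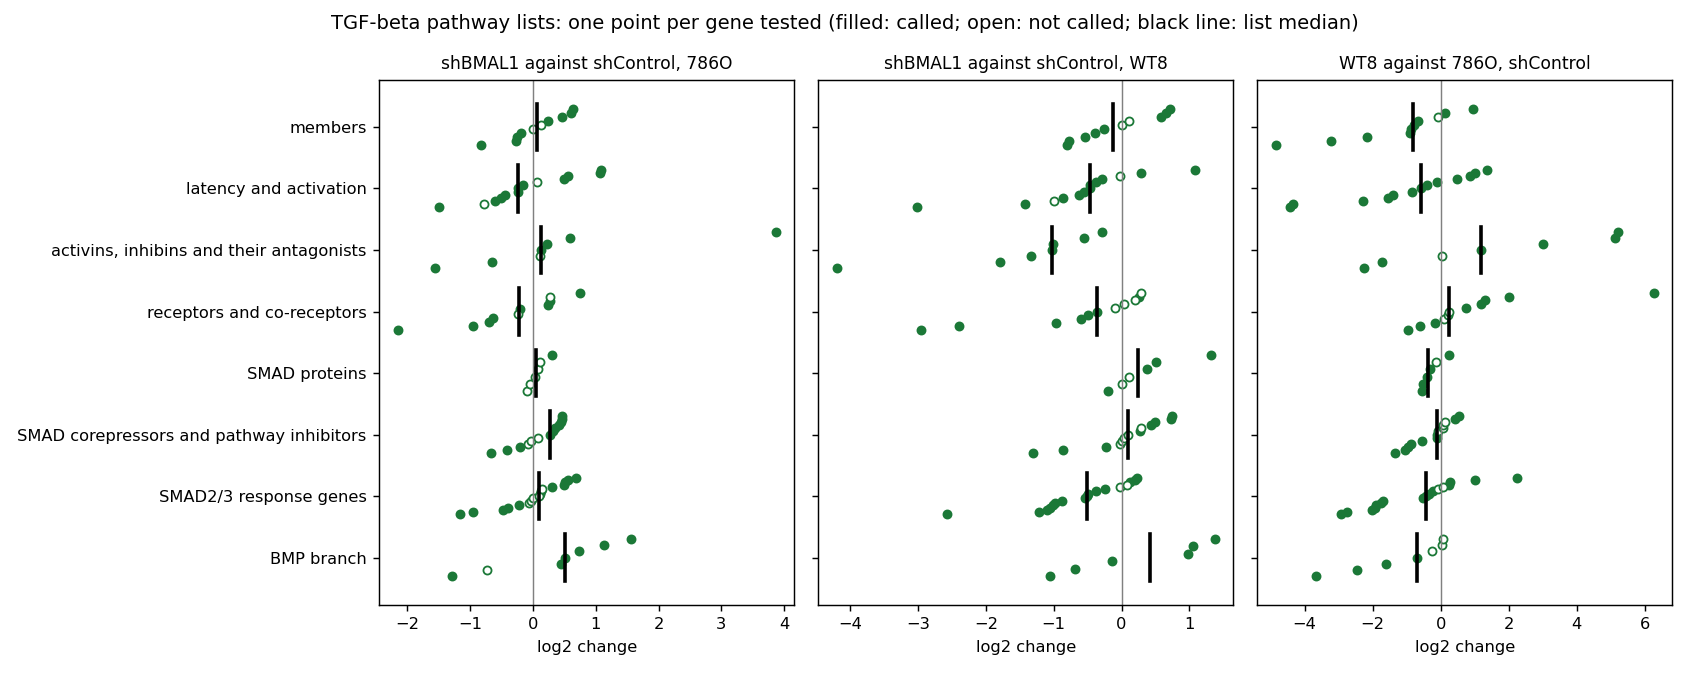
Log2 change of each tested gene (points, filled where called at an adjusted p under 0.1) of the 10 genes and of the 7 pathway lists, for shBMAL1 in 786O (left), shBMAL1 in WT8 (middle) and WT8 against 786O with shControl (right). Black lines are list medians, horizontal axes differ between panels, and genes with at most 3 counts in every library of both groups are left out. In WT8 all 7 points of the activin list lie left of 0.

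The genes most like each member across the 12 libraries were found by the root mean square difference of centred log2 CPM, among 12947 genes with a mean of at least 50 counts. TBC1D9B was the nearest to TGFBR2, at 0.03, and LARP6 lay at 0.06. IL1RAP was the nearest to TGFB1 (0.06), NFE2L3 to TGFB2 (0.06), CXXC5 to SMAD7 (0.06), TTC17 to SKIL (0.06) and DNM1 to SMAD3 (0.07). AJUBA was the nearest to TGFBR1 (0.11), and STAC was among the 3 nearest to THBS1 (0.11). TGFBI and INHBA had no neighbour as close: MAPK8IP1 lay at 0.16 and MMP14 at 0.18 from TGFBI, and F3, TOX and CCL2 lay at 0.22, 0.24 and 0.28 from INHBA. No member was among the 3 nearest genes of another member.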

How the data were processed

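RNA of 12 cultures of 786O and WT8 cells was sequenced from stranded mRNA libraries as read pairs. The deposited values are estimated counts per gene that the authors exported without scaling. The methods of the study name GRCh37, SeqMan NGen and ArrayStar, whereas the submitters' processing notes list hg38, STAR and DESeq2, and this conflict could not be resolved here. The annotation, the use of strand and the treatment of reads with several alignments are not given in the sources used here. A count of 2 was more frequent (14904 values) than a count of 1 (11312), so mates may have been counted separately.

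Of 38074 lines, 98 repeated 45 names and were summed. A stand-in of 0.028 (47% of values) was set to 0, and the rest (5.67% not whole) were rounded, although the tests had been planned for whole counts. In edgeR 4.0.16 (R 4.3.3), genes were kept by filterByExpr (16838 of 26925 with a count), scaled by TMM (0.948 to 1.04) and fitted in 1 robust quasi-likelihood model with a mean per group. Adjusted p-values are Benjamini-Hochberg over all 16838 genes, called under 0.1, the false discovery rate of the study. SE is the log2 change over the square root of F, and changes beyond 1.5-fold were tested with glmTreat. The common coefficient of variation was 5.70%. Replicates differed beyond counting error (chi-square per gene 4.37 to 11.63), and p-values measure the spread between these cultures. The scripts were tested on simulated data. Alternatives were 3 other scalings, no filter, DESeq2 1.42.0, a fit of only the groups compared, a replicate block, and each library left out.

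The members, the 7 pathway lists and the marker lists were chosen with earlier results of these data known, so no set test was run. Named besides the members and the targets BMAL1 and VHL are, per list and comparison, the called genes with the largest rise and fall among those with a mean of at least 50 counts. ID1, ID2 and ID4 are given beside ID3, outside this rule. The 3 genes most like each member are compared over 12 libraries, and 1 or more of them are named. Of the genes these rules name, 3 are not reported here. Gene positions are from GENCODE version 44 on GRCh37, and CCN2 is listed as CTGF.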

Additional observations from a re-analysis of the deposited data

Results flagged for a closer look

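For 8 of the 10 genes the change with shBMAL1 differed between the lines in the test of the difference itself (edgeR quasi-likelihood test, Benjamini-Hochberg over all genes), where 56.0% of all genes tested did. The log2 change in WT8 minus that in 786O was 0.84 for TGFB2, 0.97 for THBS1 and 0.56 for TGFBR1. It was -0.63 for TGFB1, -0.63 for TGFBI, -0.59 for TGFBR2, -0.80 for SMAD3 and -1.0 for SKIL. In WT8 the proliferation genes, VHL and BMAL1 also changed more with shBMAL1 than in 786O, and their part in these differences was not tested.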

How the results depend on the processing

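Replicate numbers did not pair the samples (correlation of same-numbered deviations -0.046 to -0.001 in the 3 pairs of groups compared). With a replicate block, the genes called were 8055 in place of 8238 in 786O, 11622 in place of 11753 in WT8, 13268 in place of 13378 between the lines and 9246 in place of 9427 for the difference in response, and all 40 member results kept their call. Requiring more than 1.5-fold gave 1 member in place of 8 in 786O, 3 in place of 8 in WT8, 7 in place of 9 between the lines and 4 in place of 8 for the difference in response. The pathway genes were then 10, 27, 38 and 17 in place of 54, 58, 60 and 49. Leaving out 1 library each gave 8 members in 786O, 7 to 8 in WT8, 8 to 9 between the lines and 8 for the difference, and 50 to 55, 55 to 59, 58 to 61 and 40 to 50 pathway genes.

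The alternatives, with the 1.5-fold test counted among them, gave 800 member results. Of these, 757 kept direction and call, 22 lost and 2 gained a call, and 19 changed sign, all of changes that were not called. The stricter 1.5-fold test accounted for 18 of the 22 lost calls. SMAD3 in 786O went from -0.00 to 0.01 with DESeq2 size factors, library totals or DESeq2, and ran from -0.05 to 0.03 without 1 library. TGFB1 in WT8 went from 0.00 to -0.00 with DESeq2 size factors or DESeq2 and to -0.07 with upper quartile scaling (-0.01 to 0.04 without 1 library). SMAD3 between the lines went from -0.09 to 0.03 with library totals and 0.02 with upper quartile scaling. The difference in response of INHBA went from 0.05 to -0.01 with upper quartile scaling (-0.10 to 0.24 without 1 library), and that of SMAD7 from -0.02 to between -0.08 and 0.05 without 1 library. Library totals and upper quartile scaling moved the median of all genes between the lines to 0.12 and 0.11, and upper quartile scaling moved that of WT8 with shBMAL1 to -0.12. At 58 to 127 counts per library, INHBA in WT8 has the largest error of the members.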
